A study of Mus musculus with 6 samples.

Results

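Transcripts of red blood cell genes were counted in 6 RNA sequencing libraries prepared from activated CD4+ T cells of mice. The 8 genes described are the alpha globin genes Hba-a1 and Hba-a2, the beta globin genes Hbb-bs and Hbb-bt, the heme synthesis gene Alas2, the membrane anion exchanger gene Slc4a1, and the transcription factor genes Klf1 and Gata1. They are 8 of the 55401 genes in the count tables. They were listed by name after an earlier look at the same comparison, in which some of them were among the largest differences, so their levels and fold changes between the groups, fitted values and standard errors included, are given as a description, and no p-value is given for them.

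Red cells form from nucleated precursors in bone marrow and, in mice, also in the spleen. The transcription factors GATA1 and KLF1 switch on the globin genes and the genes of heme synthesis in these precursors, and ALAS2 makes the first committed intermediate of heme in them. Alpha and beta globin chains join with heme to form hemoglobin, and band 3, the product of Slc4a1, exchanges chloride and bicarbonate and holds the membrane skeleton in place. Precursors expel the nucleus and become reticulocytes, which make no new RNA but still carry stable globin messages. Hemoglobin is not a product that T cells are known for.

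The control group comprised 3 libraries from mice labelled WT. The Satb1 cKO group comprised 3 libraries from mice with loxP-flanked Satb1 alleles and a Cre recombinase under Cd4 regulatory sequences, which act in developing T cells. In both groups naive CD4+ T cells were enriched from spleen with magnetic beads and stimulated through CD3 and CD28 for 24 h in culture. The labels do not give age, sex or strain, whether control mice carried Cre, or whether each library stands for its own mouse. The p-values below therefore cover only the variation among these 6 samples, part or all of which may be technical.

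The libraries held 14895389 to 20266626 reads on genes. Satb1, the targeted gene, stood at 712, 851 and 727 CPM (the read count relative to library size, with library sizes scaled by TMM) in control and at 426, 546 and 462 CPM in Satb1 cKO, counted over the whole gene, which can include exons that Cre leaves in place. The 8 T cell markers examined, from Cd3d to Lck, were all read in every library, and their summed level was 2674 to 2741 CPM in control and 1702 to 1759 CPM in Satb1 cKO. Much of that difference was in Cd4 itself, which fell from a mean of 701 to 209 CPM, and in Cd28, which fell from 610 to 341 CPM. Cd247 fell from a mean of 194.5 to 136 CPM, a log2 difference of -0.52. The log2 differences of Cd3d, Trac and Lck, which also fell, were -0.23, -0.20 and -0.24, and Cd3e and Cd3g did not pass the test. Calls were made with edgeR's quasi-likelihood test at a threshold of 0.05 on the adjusted p. Of 13364 genes tested, 42.3% were called, 21.6% as higher in Satb1 cKO and 20.7% as lower.

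The promoters of the globin genes and of Alas2 are shown because these genes were high in the same libraries, and those of Klf1 and Gata1 because these genes were not. Bases upstream of the transcript starts were taken from RefSeq (GRCm38.p6), which matched 7 of the 8 genes. The 250 bases before each start were searched on both strands for the GATA motif, for the CACC box of the kind KLF1 recognises (CCNCNCCC), for a TATA-like motif and for the letters CCAAT. The GATA motif was AGATAA with either A or G as its last base, or the same with T as its first base, and the TATA-like motif was TATAAA with either T or C as its first base. Overlapping matches were each counted. Capitals mark the matches in 2 promoters, that of Hba-a2 (chr11:32296242-32296488, plus strand) and the part of the Alas2 promoter outside the annotated gene (chrX:150547167-150547374, plus strand), where a match in capitals can lie on either strand.
Hba-a2 promoter: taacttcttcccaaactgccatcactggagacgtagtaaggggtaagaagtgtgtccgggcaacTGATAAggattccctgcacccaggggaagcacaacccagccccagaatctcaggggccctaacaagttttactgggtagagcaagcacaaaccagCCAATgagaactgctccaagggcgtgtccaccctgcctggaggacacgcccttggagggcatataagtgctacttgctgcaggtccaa
Alas2 promoter: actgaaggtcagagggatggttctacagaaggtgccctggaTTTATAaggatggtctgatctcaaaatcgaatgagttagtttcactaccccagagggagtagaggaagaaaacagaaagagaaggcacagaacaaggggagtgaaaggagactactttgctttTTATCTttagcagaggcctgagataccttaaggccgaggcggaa

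Short windows of 30 bases show the GATA match of Hbb-bs (chr7:103828121-103828150, minus strand) and of Klf1 (chr8:84901890-84901919, plus strand). They also show the CACC box matches of Hbb-bs (chr7:103828003-103828032, minus strand) and Hbb-bt (chr7:103814012-103814041, minus strand), and the middle of 3 in Gata1 (chrX:7967947-7967976, minus strand), where the RefSeq start lies inside the annotated gene. Capitals again mark the match.
Hbb-bs GATA: tgttctctgcacAGATAAggacaaacatta
Klf1 GATA: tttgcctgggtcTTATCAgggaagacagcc
Hbb-bs CACC box: attccgtagagCCACACCCtggtaagggcc
Hbb-bt CACC box: catctctgaagCCTCACCCtgcagggtaac
Gata1 CACC box: cccctgcactgCCCCACCCactggggcacc

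GATA motifs were found in 5 of the 7 promoters and in 26.5% of the 32851 promoter entries of the same length, and CACC boxes in 4 of the 7 and in 45.9% of all. The CACC box matches of Alas2 lie between bases -42 and -19 from the start, in the part of its promoter not printed above. A CCAAT match was present in 5 of the 7 (33.8% of all) and a TATA-like match in 2 of the 7 (20.9% of all). The 250-base windows of Hba-a1 and Hba-a2 shared an unbroken run of 247 bases, so that the Hba-a2 sequence above also stands for Hba-a1. Those of Hbb-bs and Hbb-bt shared no run longer than 14 bases. A match is a description of the letters and does not show that a factor binds there.

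Alpha globin transcripts were present in every library and were far more abundant in Satb1 cKO. Hba-a1 (ENSMUSG00000069919.7, chr11:32283511-32284465, GRCm38) stood at 7.19, 9.87 and 8.82 CPM in control and at 105, 520 and 442 CPM in Satb1 cKO replicates 1, 2 and 3. The Satb1 cKO libraries therefore all lay above control, and replicate 1 lay well below replicates 2 and 3. The group means were 8.62 ± 1.35 and 356 ± 221 CPM (SD, n = 3), a ratio of 41.2. Because these are bulk samples, more cells of a type and more RNA per cell cannot be told apart.

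Hba-a2 (ENSMUSG00000069917.7, chr11:32296489-32297298), a nearly identical copy on the same chromosome, was counted in 4, 4 and 3 control reads and in 80, 289 and 234 Satb1 cKO reads. These correspond to 0.220 ± 0.042 and 11.6 ± 6.54 CPM (SD, n = 3), again without overlap and with replicate 1 lowest. Counts of the copies depend on where they differ. Of all stretches of 100 bases in annotated Hba-a2 transcripts, 79.5% also occur in Hba-a1, against 63.3% of those in Hba-a1. Reads that align in several places would not be counted by HTSeq in its usual mode, so both alpha globin counts may be low by an amount that these tables do not give.

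Beta globin transcripts showed the same order of libraries. Hbb-bs (ENSMUSG00000052305.6, chr7:103826534-103828096), which had the most reads of the 8 genes, stood at 14.0, 17.9 and 15.2 CPM in control and at 162, 1023 and 887 CPM in Satb1 cKO. The means were 15.7 ± 1.99 and 691 ± 463 CPM (SD, n = 3), a ratio of 44.1. Hbb-bt (ENSMUSG00000073940.3, chr7:103812524-103813996), its neighbour on chromosome 7, stood at 1.87, 2.55 and 1.56 CPM in control and at 22.2, 188 and 156 CPM in Satb1 cKO, a ratio of means of 61.2. In both genes the lowest Satb1 cKO library was above every control library. The beta genes share less sequence than the alpha genes: 49.7% of 100-base stretches of Hbb-bs occur in Hbb-bt, and 54.8% of those of Hbb-bt in Hbb-bs.

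Together the 4 globin genes took 472, 455 and 397 reads in control and 5575, 30547 and 24835 reads in Satb1 cKO replicates 1, 2 and 3. As a share of all reads on genes this was 0.00233% to 0.00306% in control and 0.0293%, 0.174% and 0.149% in Satb1 cKO. The summed level was 26.5 ± 3.72 CPM in control and 1180 ± 778 CPM in Satb1 cKO (SD, n = 3), a ratio of 44.5. Hemoglobin message was thus a very small part of every library, in both groups.

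Alas2 and Slc4a1, genes of heme synthesis and of the red cell membrane, followed the globin genes. Alas2 (ENSMUSG00000025270.13, chrX:150547375-150570638), the red cell form of the enzyme that opens heme synthesis, stood at 1.38, 0.739 and 1.62 CPM in control and at 13.3, 83.4 and 78.2 CPM in Satb1 cKO, a ratio of means of 46.8. The groups did not overlap, and replicate 1 was again lowest of the 3. The gene overlaps Apex2 on the opposite strand, and 8.88% of its 100-base transcript stretches also occur in Apex2, so without strand in the counting the origin of such reads is uncertain. Slc4a1 (ENSMUSG00000006574.15, chr11:102348824-102366203) was counted in 4, 1 and 3 control reads and in 58, 466 and 483 Satb1 cKO reads, or 0.153 ± 0.074 and 19.6 ± 14.4 CPM (SD, n = 3). Its control level rests on single reads, with an exact 95% Poisson interval of 0.0253 to 5.57 reads for control replicate 2, so the ratio of means of 128 is loosely fixed. Such intervals cover counting error only.

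**Figure D1:**
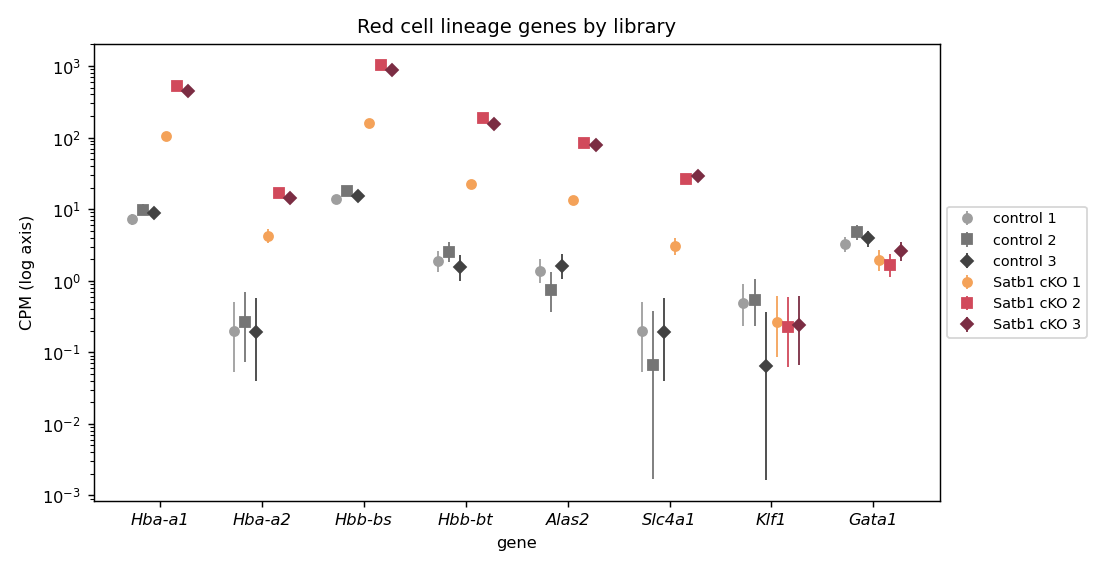
CPM of the 8 genes (log axis) in each library, with control replicates in grey and Satb1 cKO replicates in colour, and bars for the exact 95% Poisson interval of the count. The 4 globin genes, Alas2 and Slc4a1 lie above control in each Satb1 cKO library, with replicate 1 below replicates 2 and 3, whereas Gata1 lies below control and Klf1 overlaps it.

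The transcription factor genes did not follow. Gata1 (ENSMUSG00000031162.14, chrX:7959260-7978071) stood at 3.25, 4.77 and 3.89 CPM in control and at 1.94, 1.66 and 2.60 CPM in Satb1 cKO. All 3 Satb1 cKO libraries lay below all 3 control libraries. The means were 3.97 ± 0.762 and 2.07 ± 0.480 CPM (SD, n = 3), a ratio of 0.521. The lowest Gata1 level was in Satb1 cKO replicate 2, the library with the most globin reads.

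Klf1 (ENSMUSG00000054191.8, chr8:84901928-84905291) was counted in 10, 8 and 1 control reads and in 5, 4 and 4 Satb1 cKO reads. Its groups overlapped, at 0.365 ± 0.261 and 0.244 ± 0.017 CPM (SD, n = 3). Exact 95% Poisson intervals ran from 4.80 to 18.4 reads for control replicate 1 and from 1.09 to 10.2 reads for Satb1 cKO replicates 2 and 3. A small difference in Klf1 was therefore not detectable at this depth. Hba-a2, with 4, 4 and 3 control reads, reached 80, 289 and 234 Satb1 cKO reads, and Klf1 showed no rise of that size. No annotated gene overlaps Gata1 or Klf1, and none of their 50-base transcript stretches occurs in another gene.

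The filter on low counts kept 7 of the 8 genes and removed Klf1. Of all 8, 6 lay above control in each Satb1 cKO library and 1 below. Among all 13364 genes tested, 42.3% were called, 21.6% higher and 20.7% lower, while 27% lay wholly above and 26.5% wholly below control. Since the genes were chosen from this comparison, nothing is read from these counts. In the fit over all genes, the log2 fold changes were 5.38 for Hba-a1 (SE 0.545), 5.69 for Hba-a2 (SE 0.633), 5.47 for Hbb-bs (SE 0.59) and 5.94 for Hbb-bt (SE 0.811). Alas2 had 5.51 (SE 0.74), Slc4a1 6.88 (SE 1.03) and Gata1 -0.93 (SE 0.231).

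Levels of different genes were compared per kilobase of annotated exon, which corrects for gene length. It does not correct for sequence shared with another gene, where reads may not be counted. Of 100-base stretches, 79.5% of those in Hba-a2 and 63.3% of those in Hba-a1 are shared, and 49.7% and 54.8% in Hbb-bs and Hbb-bt. The places of the globin genes below, that of Hba-a2 above all, are therefore uncertain. In Satb1 cKO the mean level was 899 CPM per kilobase for Hbb-bs, 438 for Hba-a1 and 173 for Hbb-bt, followed by 24.3 for Alas2, 17.4 for Hba-a2 and 4.01 for Slc4a1. Gata1 had a mean level of 0.847 and Klf1 of 0.160 CPM per kilobase. Alas2 and Hba-a2 changed places between libraries, with 5.55 and 6.30 CPM per kilobase in replicate 1 but 34.7 and 24.8 in replicate 2. In control the order was Hbb-bs (20.4), Hba-a1 (10.6) and Hbb-bt (2.83), and then Gata1 (1.63 CPM per kilobase), which there stood above Alas2 (0.518).

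The 3 Satb1 cKO libraries differed widely from each other in red cell transcripts. The highest library held 4.96 times the CPM of the lowest for Hba-a1, 3.94 times for Hba-a2, 6.33 times for Hbb-bs and 8.45 times for Hbb-bt. The same ratio was 6.25 for Alas2 and 9.57 for Slc4a1. For the summed globin level it was 5.97 in Satb1 cKO and 1.32 in control. Among genes whose mean CPM in Satb1 cKO lay within a factor of 2 of Hbb-bs, the median ratio was 1.05, and none of these 435 genes reached that of Hbb-bs. Of 1072 genes near Hba-a1 and 3067 near Hbb-bt, 0 had a ratio as high as the globin gene itself, and of 2673 near Hba-a2 there were 4.

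In each of these 6 genes the lowest library was replicate 1. Replicates 2 and 3 were close to each other: the CPM of replicate 3 was 0.849 of that of replicate 2 for Hba-a1, 0.867 for Hbb-bs, 0.938 for Alas2 and 1.09 for Slc4a1. Replicate 1 was itself above control, with 12.2 times the control mean for Hba-a1, 10.3 times for Hbb-bs and 10.7 times for Alas2. For Gata1 the highest to lowest ratio was 1.56, and 819 of 2217 genes of like level had a ratio at least as high.

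**Figure D2:**
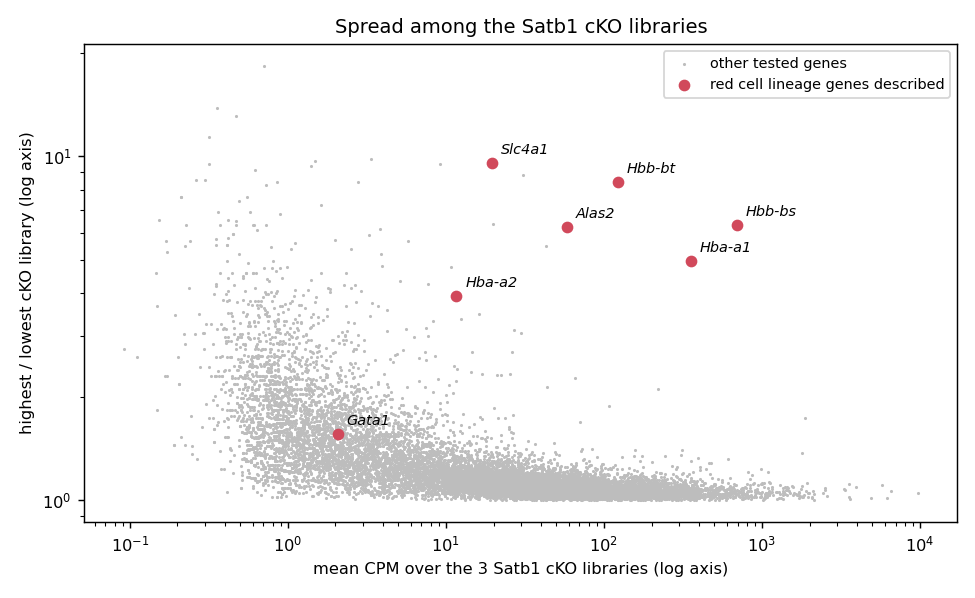
Ratio of the highest to the lowest Satb1 cKO library for each tested gene with reads in all 3, against the mean CPM of the 3 libraries (both log axes). The 4 globin genes, Alas2 and Slc4a1 lie at ratios of 3.94 to 9.57, above nearly all genes of like level, while Gata1 (1.56) lies among the other genes.

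The proportions between red cell genes were close, but not equal, across libraries. Alpha globin reads per beta globin read came to 0.593 in Satb1 cKO replicate 1 (exact 95% binomial interval 0.562 to 0.627), 0.443 in replicate 2 (0.432 to 0.454) and 0.437 in replicate 3 (0.425 to 0.449). Replicate 1 was thus higher than replicates 2 and 3 beyond counting error. Control libraries had 0.466, 0.497 and 0.539, with wide intervals from 0.381 to 0.665 in all. The share of reads with several alignments was 3.04% to 3.05% in control and 2.92% to 3.16% in Satb1 cKO, lowest in replicate 1 and highest in replicate 2. Its part in the globin ratio was not tested.

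Hbb-bs reads per Hbb-bt read came to 7.27 in replicate 1 (6.57 to 8.07), 5.45 in replicate 2 and 5.70 in replicate 3, and from 7 to 9.75 in control. Replicate 1 was higher than replicates 2 and 3 beyond counting error, while the control intervals, from 4.97 to 15.5 in all, were too wide to place them. Alas2 kept nearly the same proportion to globin, with 45.6, 47.7 and 52.2 reads per 1000 globin reads in Satb1 cKO. Slc4a1 did not: it had 10.4 reads per 1000 globin reads in replicate 1 (7.89 to 13.5), 15.3 in replicate 2 (13.9 to 16.7) and 19.5 in replicate 3 (17.7 to 21.3).

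**Figure D3:**
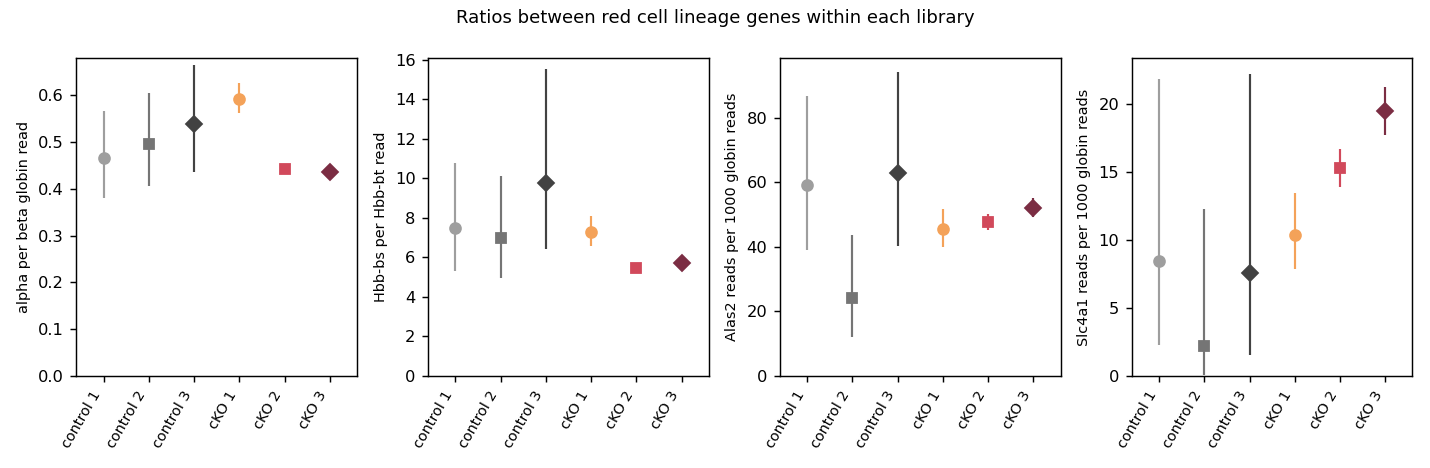
Reads of one gene or gene pair per read of another in each library, with exact 95% binomial intervals for counting error. Alpha per beta globin and Hbb-bs per Hbb-bt are higher in Satb1 cKO replicate 1 than in replicates 2 and 3, Alas2 stays at 45.6 to 52.2 reads per 1000 globin reads in Satb1 cKO, and Slc4a1 lies between 10.4 and 19.5.

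Other genes of the red cell lineage were taken from 6 lists, which held 71 genes. Of these, 43 were tested, 22 had too few reads to be tested, 5 had no read in any library and 1 was not analysed here. In Satb1 cKO 18 of the 43 rose and 5 fell, beside 21.6% and 20.7% of all genes tested. Their median log2 fold change was 0.12, beside 0.0034 over all genes. Without Satb1 cKO replicate 1, 27 rose, and without replicate 3, 14.

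Embryonic globin genes were not read. Hbb-bh1, Hbb-bh2, Hbb-y and Hba-x had 0 reads in all 6 libraries, and the theta globin copies Hbq1a and Hbq1b had 0 to 7 reads each. The globin message in these libraries was therefore counted on the adult genes.

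The 18 membrane and skeleton genes included 7 with enough reads to test, and 2 of them rose while 1 fell. Epb41, encoding the skeleton protein 4.1 that many cells make, rose from 208, 227 and 230 CPM to 252, 304 and 315 CPM (log2 fold change 0.39). Gypc, encoding glycophorin C, which white cells also carry, fell by 0.33 on the log2 scale. Icam4 had 0 reads in every library. Some genes too low to be tested, chosen after their values were seen, had the globin order: Epb42, encoding protein 4.2, had 1, 1 and 1 control reads and 2, 32 and 35 Satb1 cKO reads. Kel, encoding the Kell blood group protein, had no control read and 0, 17 and 17 Satb1 cKO reads. Among the other untested genes, Ank1 had 5, 14 and 13 Satb1 cKO reads, Tmod1 7, 15 and 11, and Ermap 5, 13 and 11. These had 0 to 3 reads in each control library. Rhag (0, 6 and 1), Add2 (0, 1 and 3), Dmtn (0, 6 and 5) and Aqp1 (1, 6 and 3) had fewer Satb1 cKO reads. Each of these genes was also lowest in replicate 1, though at such counts the order is loosely fixed. Dmtn had 1, 5 and 0 control reads.

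Late precursor genes numbered 16, and among the 11 tested 5 rose and 1 fell. Car2, encoding carbonic anhydrase 2, rose from 2.12, 1.34 and 1.23 CPM to 7.04, 11.8 and 14.4 CPM. Bpgm, encoding the enzyme that makes the hemoglobin regulator 2,3-bisphosphoglycerate, stood at 24.9 ± 2.65 CPM in control and at 26.8, 57.4 and 47.1 CPM in Satb1 cKO (log2 fold change 0.81, adjusted p = 0.0101), so that replicate 1 lay within control. Bnip3l, encoding the mitophagy receptor that clears mitochondria from reticulocytes and is made by many cells, fell by 0.68 on the log2 scale. Trim10 and Trim58, ubiquitin ligase genes of late red cell precursors chosen after their values were seen, had 4, 48 and 59 and 0, 13 and 19 Satb1 cKO reads against 0 to 2 in each control library. The other untested genes of the list did not show that order: Car1 had 0, 5 and 0 control reads and 0, 0 and 7 Satb1 cKO reads, Pklr had 0 Satb1 cKO reads, and Tfr2 had 6, 6 and 11. Hemgn, encoding the nuclear protein hemogen of blood precursors, was tested and not called, with 7, 10 and 21 Satb1 cKO reads.

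Among the 8 tested of 12 transcription factor genes, 5 rose and 0 fell. Lmo2, encoding an adaptor of the GATA1 complex, had 0, 3 and 9 control reads and 39, 47 and 39 Satb1 cKO reads (log2 fold change 3.26, SE 0.557). Nfe2, a factor of red cells, platelets and granulocytes, rose from 0.246, 0.134 and 0.518 CPM to 1.31, 1.66 and 2.23 CPM. Zbtb7a and Zfpm1, broadly made factors, the latter the GATA1 partner FOG1, rose with log2 fold changes of 0.54 (SE 0.043) and 0.40 (SE 0.048). In these 4 genes the CPM of replicates 2 and 3 was 0.977 to 1.70 times that of replicate 1. Tal1, encoding the factor that works with GATA1 and LMO2 in early blood cells and too low to be tested, had 4, 0 and 1 control reads and 7, 34 and 27 Satb1 cKO reads.

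Of the early receptor genes, Kit, the stem cell factor receptor of blood precursors and mast cells, rose from 4.38, 4.77 and 3.95 CPM to 11.8, 12.4 and 11.1 CPM, nearly level across the Satb1 cKO libraries. Epor, the erythropoietin receptor gene, had 4, 2 and 4 control reads and 3, 3 and 11 Satb1 cKO reads and was too low to be tested.

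All 16 genes of heme synthesis and of iron and heme transport could be tested. Here 5 rose and 3 fell, and the median change was 0.03 on the log2 scale. Abcb10, a mitochondrial transporter gene, rose, with a log2 difference of 0.91 (SE 0.136). Alad and Cpox, encoding later enzymes of heme synthesis, rose with 0.43 (SE 0.076) and 0.29 (SE 0.0496). Tfrc, the transferrin receptor gene, which activated T cells also use for iron uptake, fell by 0.28 on the log2 scale, from a mean of 1051 to 867 CPM. Alas1, the form of the first enzyme that all cells make, stood at 33.1 ± 2.31 and 34.5 ± 1.90 CPM (SD, n = 3) and did not pass the test, with a log2 fold change of 0.06. Among these genes, those called moved far less than Alas2.

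The order of the Satb1 cKO libraries was compared across lists by a rule set after the values were seen: replicates 2 and 3 each at least 3 times replicate 1, in genes with at least 20 reads over the 3 libraries. This held for 72 of 14466 genes (0.498%). It held for 6 of the 7 genes described with that many reads, all but Gata1, and for 8 of 53 other red cell lineage genes, among them Epb42, Kel, Trim10, Trim58 and Tal1. It held for 0 of the 16 heme and iron genes, 0 of the 8 T cell markers and 1 of 46 markers of other cells, the complement gene C1qb. Of the 57 genes outside all lists, the most abundant was Tmcc2, a transmembrane coiled-coil gene, with 9, 19 and 14 control reads and 99, 726 and 762 Satb1 cKO reads. Among the 72 genes were also 11 immunoglobulin V segments. Others at few reads were the collagen genes Col1a2 (3, 12 and 8 Satb1 cKO reads) and Col3a1 (3, 10 and 9). The chemokine genes Cxcl12 (2, 17 and 7) and Ccl21a (4, 16 and 25) were also among them. No list of connective tissue cells was examined, so the low replicate 1 was not particular to red cell genes.

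**Figure D4:**
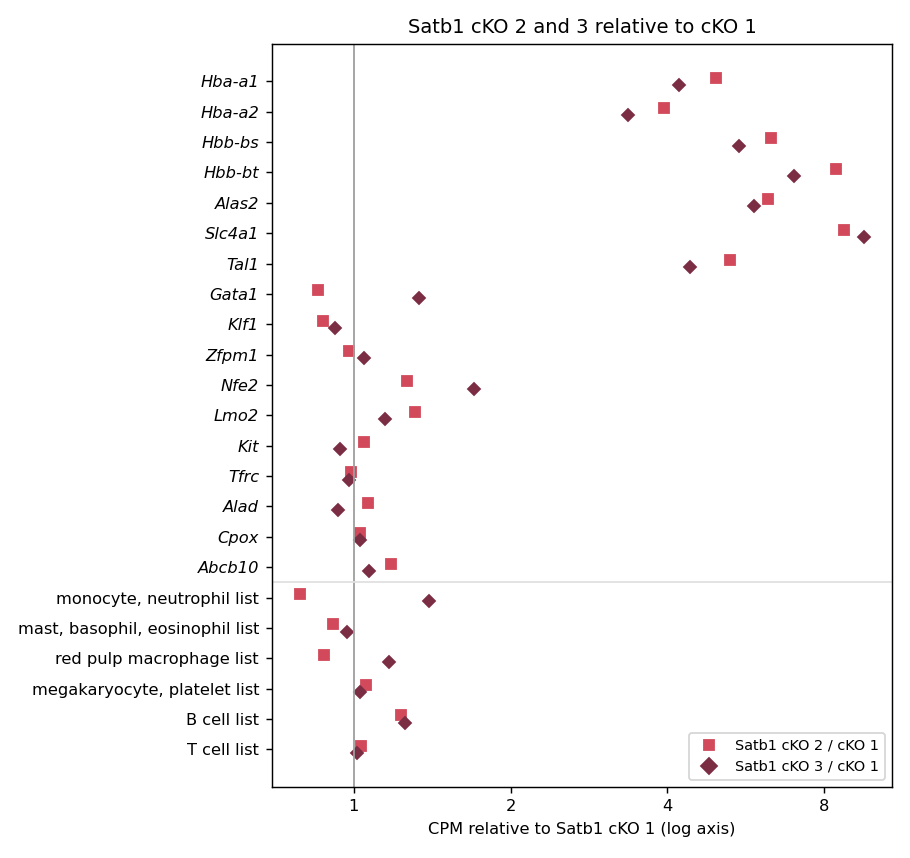
CPM in Satb1 cKO replicates 2 and 3 relative to replicate 1 (log axis) for single genes above the line and for the summed level of marker lists below it. The 4 globin genes, Alas2, Slc4a1 and Tal1 lie between 3.36 and 9.57, whereas Gata1, Klf1, the other single genes shown and the 6 lists lie closer to 1, the lists between 0.787 and 1.39.

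The 10 protein-coding genes most like the red cell genes were found from the root mean square difference between centred log2 CPM profiles over the 6 libraries, against the mean profile of the 7 genes that passed the filter, Gata1 included. Among them were Tmcc2 (0.477), Cysltr1 (0.603) and Clu (0.647), and Ramp3, Thbs1, Tigit, Coch and Ttc39c at 0.657 to 0.693. The 4 globin genes, Alas2 and Slc4a1 themselves lay at 0.334 to 0.801 from this mean and Gata1 at 2.72. Some were alike in the difference between groups but not within Satb1 cKO: Tigit, an inhibitory receptor gene of T cells, stood at 138, 157 and 145 CPM in Satb1 cKO and did not share the low replicate 1.

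Markers of other cells that a spleen preparation could hold also differed. Of 10 monocyte and neutrophil genes, 10 rose, and their summed level was 12.1 to 17.0 CPM in control and 113, 89.2 and 158 CPM in Satb1 cKO replicates 1, 2 and 3. Lyz2 (62.3, 41.1 and 93.0 CPM), Ly6c2 (14.5, 10.7 and 12.2 CPM) and Mpo (9.19, 10.9 and 8.51 CPM) had the highest means. Of 8 mast cell, basophil and eosinophil genes, 8 rose, from a summed 9.30 to 17.9 CPM to 64.4, 58.9 and 62.6 CPM, led by Prg2, Prss34 and Mcpt8. The summed level of neither list was lowest in Satb1 cKO replicate 1, but single genes differed in this. In the first list S100a8, S100a9, Camp, Elane and Ngp (6.46, 8.47 and 12.4 CPM) were lowest in replicate 1. Lyz2, Ly6c2, Mpo, Csf1r and Itgam were not. In the second list Fcer1a, Ms4a2 and Hdc were lowest in replicate 1, and Cpa3, Mcpt8, Prss34, Prg2 and Epx were not. No gene of either list had replicates 2 and 3 each at least 3 times replicate 1.

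Of 16 genes of heme recycling and of red pulp macrophages, which clear aged red cells, 7 were tested and 6 rose. Their summed level was 29.4 to 34.8 CPM in control and 65.0, 56.9 and 76.0 CPM in Satb1 cKO, with Axl, Hmox1 and Blvrb highest and Vsig4 at 0. Most of that sum was Hmox1 and Axl, the latter at 16.59 to 22.65 CPM in control and 23.35 to 26.8 CPM in Satb1 cKO. The sum is therefore not read as a level of these macrophages. Spic, the defining factor of these macrophages, had 4, 5 and 4 control reads and 14, 1 and 12 Satb1 cKO reads. Hmox1, which encodes the enzyme that degrades heme, rose from 7.48, 9.60 and 8.49 CPM to 25.4, 18.8 and 30.8 CPM, and its lowest Satb1 cKO level was in replicate 2, the library with the most globin.

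Among the 5 tested of 15 megakaryocyte and platelet genes, 2 rose and 1 fell, and the summed level was 33.9 to 56.1 CPM in control and 27.2 to 28.7 CPM in Satb1 cKO. Most of that sum was Itgb3, which T cells can make and which fell by 1.16 on the log2 scale. Itga2b rose by a log2 fold change of 1.00, Gp1ba did not pass the test, and Gp1bb had 0 reads. Of 7 B cell genes, 6 were tested and 2 rose, with a summed 226 to 288 CPM in control and 240 to 301 CPM in Satb1 cKO, nearly all of it Ighm. Cd79b rose and Cd79a did not pass the test. The part of these cells in the levels of the red cell genes was not tested.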

How the data were processed

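The authors deposited a table of raw read counts per gene for each of 6 libraries, not normalized. Per the submitters' processing notes, the tools were STAR 2.7.3a and HTSeq 0.12.4 and the build was mm10. For the annotation release, strand setting and read length, nothing is given in the sources used here. HTSeq's 5 summary lines, which name no gene, held 15.8% to 18.0% of all reads in the tables and were left out. Symbols, positions and exon lengths came from GENCODE M21 (GRCm38), which matched 55141 of 55401 genes.

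The tests used edgeR 4.0.16 under R 4.3.3, with filterByExpr, TMM scaling, and a quasi-likelihood fit with group as its only term over 13364 genes. A call needed a p below 0.05 after Benjamini-Hochberg adjustment over all tested genes, and "rose", "fell" and adjusted p-values refer to this test. The spread model had a biological coefficient of variation of 6.27%. CPM values are counts over TMM-scaled library sizes. No libraries were identical, and counts within a group differed by more than sampling noise (chi-square of 2.18 to 7.62 for each degree of freedom). The procedure was tested on simulated data.

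The 8 genes and the lists were chosen with earlier results of these data known. Named genes were the 8 genes, up to 4 called genes of smallest p per red cell list, genes at 0 reads, the 3 most abundant genes per list of other cells, and the 10 genes of most similar profile (log2 CPM with a prior count of 2); others are marked, and a few genes that this rule names are not reported here. Alternatives were other scaling methods, no filter, a prior count of 1, DESeq2 1.42.0, a replicate block and leaving out each library.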

Additional observations from a re-analysis of the deposited data

How the results depend on the processing

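The log2 fold changes of the 7 red cell genes that passed the filter kept their sign under 13 alternatives each. Hbb-bs ranged from 5.06 to 5.94, Hba-a1 from 4.99 to 5.82, Alas2 from 5.15 to 5.99, Slc4a1 from 6.48 to 7.40 and Gata1 from -1.13 to -0.79. All moved by less than the spread between replicates. Leaving out 1 of 3 libraries could hardly move them further than that spread, which the same libraries set, so nothing is read from this. The ratio of the highest to the lowest Satb1 cKO library in summed globin CPM, 5.97 with all libraries, ranged from 1.17 to 5.98 when single libraries were left out. It was 1.17 without Satb1 cKO replicate 1 and 5.09 without replicate 2, because these are the lowest and the highest library. Other red cell lineage genes that rose numbered 18, and 28 when every gene with at least 1 read was tested, since genes too low for the filter then entered. Leaving out single libraries gave 14 to 27. The labels do not say whether the replicate numbers pair the samples. Deviations of same-numbered libraries from their group means correlated at 0.0215, -0.0125 and 0.0279, and those of differently numbered libraries at -0.0697 to 0.0458. With 3 libraries per group these values cannot decide whether the numbers mark a pairing. With the replicate block 5563 genes were called, beside 5651 without it, and 18 other red cell lineage genes rose, as in the fit without it. Of the named marker, red cell and similar genes that were called, none changed sign under any alternative, and 10 of 61 genes lost their call under at least 1. The depth of control libraries limits Slc4a1, Hba-a2 and Klf1, whose control counts were 10 reads or fewer per library.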
